A study of Homo sapiens with 6 samples.

Results

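The mRNA level of the respiratory chain was measured in TPC-1 cells, a human papillary thyroid carcinoma cell line, with and without overexpression of *RRM2*, which encodes the small subunit of ribonucleotide reductase. The members were the protein-coding genes of chromosome MT and the nuclear genes whose symbol starts with NDUFA, NDUFB, NDUFC, NDUFS or NDUFV (without the NDUFAF assembly factors), UQCR, ATP5 or COX4 to COX8, together with *SDHA*, *SDHB*, *SDHC* and *SDHD*. This gave 104 of the 58735 genes in the deposited table, 91 of them nuclear and 13 on chromosome MT. Complex I held 38 nuclear and 7 mitochondrial members, complex II 4 nuclear ones, complex III 9 and 1, complex IV 19 and 3, and complex V 21 and 2.

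The respiratory chain sits in the inner mitochondrial membrane. Complexes I and II pass electrons from NADH and succinate to ubiquinone, complex III passes them to cytochrome c, complex IV passes them to oxygen, and complex V, the ATP synthase, uses the proton gradient that complexes I, III and IV build. Complexes I, III, IV and V are each made of subunits from both genomes, whereas complex II is wholly nuclear. The mitochondrial mRNAs are cut from long transcripts of the heavy and light strands, and nearly all of them come from the heavy strand. Among thyroid tumors, the oncocytic ones are known for cells crowded with mitochondria.

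Wild strain TPC-1 cells, for which no vector is described, gave 3 libraries, and *RRM2*-OE-TPC-1 cells gave 3 more. The latter were infected with a lentivirus, LV18, in which a CMV promoter drives *RRM2*, and were selected with puromycin, so infection, selection and *RRM2* cannot be told apart in this contrast. For 2 of the *RRM2*-OE-TPC-1 libraries, replicates 2 and 3, the genotype label names RRM3 and RRM4 in place of the RRM2 of the title. The methods describe poly(A) selection of mRNA, whereas the labels describe removal of ribosomal RNA and digestion of linear RNA with RNase R. The methods call the libraries biological triplicates, and no label says how the cultures were separated.

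The libraries held 14317091 to 17084067 reads on genes. *RRM2* was at 9.17, 9.05 and 8.52 FPKM in TPC-1 and at 50.4, 47.5 and 47.2 FPKM in *RRM2*-OE-TPC-1, a log2 fold change of 2.43 ± 0.0442 (SE, n = 3 per group, limma adjusted p = 1.11e-08). FPKM is the number of fragments scaled to exon length and to library depth, and fold changes were computed on log2(FPKM + 0.1). Of the thyroid markers, *PAX8* had group means of 69.3 and 58.5 FPKM and *FOXE1* of 4.30 and 3.19 (TPC-1 first), *NKX2-1* was listed at 0, and *TG*, *TSHR* and *SLC5A5* reached at most 0.113 FPKM in any library. The leukocyte genes *PTPRC*, *CD68* and *CD3E* reached at most 0.0316. Among the other markers, *KRT18* rose from 41.2 to 85.2 FPKM and *PECAM1* fell from 0.924 to 0.0588 FPKM, while *VWF* and *CDH5* stayed at most at 0.0400 and 0.00978. The part of these changes in the values below was not tested, and fewer cells of a type and less RNA per cell cannot be told apart in bulk samples.

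Nuclear genes of the chain were mostly higher in *RRM2*-OE-TPC-1, by small amounts, whereas few genes of chromosome MT passed the test. Of the 82 nuclear members tested, 54 rose, 7 fell and 21 did not pass at an adjusted p of 0.05 or less (limma), and the median log2 fold change was 0.27. Over all 13621 genes tested, 34.9% were called higher and 32.7% lower, with a median of 0.01. The 3 libraries of *RRM2*-OE-TPC-1 all lay above the 3 of TPC-1 for 54 nuclear members and all below for 8. Across all tested genes these shares were 37.3% and 35.0%. The middle of the nuclear distribution, from the lower to the upper quartile, ran from 0.08 to 0.50 on the log2 scale, and 68 of the 82 values were positive.

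The changes were small for nearly every member. Requiring in addition a log2 fold change of at least 1 in size, which 4.48% of tested genes passed upward and 6.97% downward, left 0 nuclear members higher and 2 lower, *COX6B2* and *NDUFA4L2*. The symbol rule also took in genes that are not constitutive subunits of a complex. Without *ATP5S*, a coupling factor-like gene since renamed *DMAC2L*, *ATP5IF1*, the inhibitor of the ATP synthase, *UQCRHL*, a retrocopy of *UQCRH*, and these 2 isoform genes, 77 members were tested, of which 54 rose and 4 fell, with a median of 0.32.

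**Figure D1:**
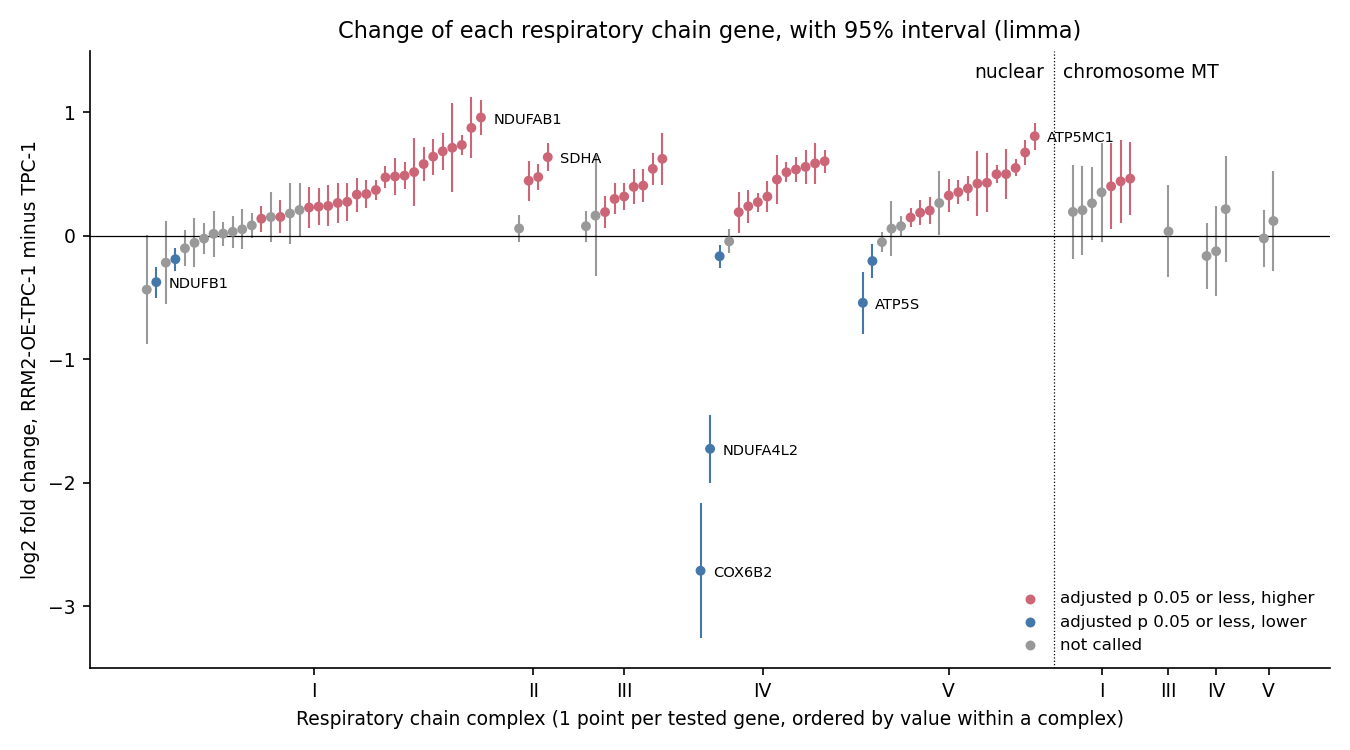
Log2 fold change of RRM2-OE-TPC-1 minus TPC-1 on log2(FPKM + 0.1) for the 95 tested members, 1 point per gene with its 95% interval from limma, grouped by complex and ordered by value. Most nuclear points lie between 0 and 1, COX6B2 and NDUFA4L2 lie far below them, and the 13 points of chromosome MT have wide intervals, 10 of which cross 0.

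Summed over its nuclear members, each complex was higher in every *RRM2*-OE-TPC-1 library than in any TPC-1 library. The sum over all nuclear members was 2166, 2021 and 2086 FPKM in TPC-1 and 2646, 2664 and 2629 FPKM in *RRM2*-OE-TPC-1. By complex, the mean sum went from 711 ± 31.8 to 888 ± 11.96 FPKM for complex I, from 54.9 ± 1.13 to 75.2 ± 2.54 for complex II and from 252 ± 11.7 to 321 ± 2.35 for complex III (SD, n = 3). It went from 464 ± 20.3 to 576 ± 11.6 FPKM for complex IV and from 609 ± 11.1 to 786 ± 9.52 for complex V. These sums are led by the most abundant members, and no test was made on them.

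Complex I, the NADH dehydrogenase, had 36 nuclear members tested, of which 21 rose and 2 fell (median log2 fold change 0.23). Its 7 core subunits, which carry the flavin and the iron-sulfur clusters, did not move as one, with 2 higher, 1 lower and a median of 0.02. Its 29 tested accessory subunits held the other 19 higher and 1 lower, with a median of 0.27. The difference between core and accessory subunits was not tested.

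The accessory subunit *NDUFAB1*, which is also the mitochondrial acyl carrier protein (chr16:23581002-23596356), had the highest log2 fold change of the nuclear members. It was at 14.3, 13.1 and 12.4 FPKM in TPC-1 and at 26.8, 26.2 and 24.4 in *RRM2*-OE-TPC-1. The groups lay far apart relative to their spread, at a 1.95-fold higher mean (log2 fold change 0.96 ± 0.0602, SE, limma adjusted p = 3.58e-06). *NDUFB3*, an accessory subunit of the membrane arm, was at 11.5, 12.5 and 13.5 FPKM against 27.3, 21.2 and 20.8. Here replicate 1 of *RRM2*-OE-TPC-1 stood above the other two, and the log2 fold change was 0.88 ± 0.107 (limma adjusted p = 1.49e-04), with 0.75 as the lowest value when 1 library was left out. *NDUFA8*, an accessory subunit with cysteine motifs that is imported into the intermembrane space, was at 44.2, 41.6 and 42.9 FPKM against 73.3, 70.1 and 71.2. Its libraries were tight within each group, and it rose by 0.74 ± 0.0352 (limma adjusted p = 9.37e-07).

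At the other end of complex I stood *NDUFB1*, a small membrane arm subunit, and *NDUFS1*, the largest core subunit and a carrier of iron-sulfur clusters. *NDUFB1* was at 10.4, 9.62 and 9.51 FPKM in TPC-1 and at 7.28, 7.79 and 7.65 in *RRM2*-OE-TPC-1, and fell by 0.37 on the log2 scale (SE 0.0541, limma adjusted p = 3.93e-04). *NDUFS1* was at 11.9, 11.6 and 11.9 FPKM against 10.2, 10.3 and 10.6, and fell by 0.19 (SE 0.0399, limma adjusted p = 0.00324). Both decreases were small, and both held with each library left out. The core subunit *NDUFS3* rose by 0.48, from 9.87 ± 0.575 to 13.8 ± 0.992 FPKM (SD, n = 3), and *NDUFV1*, which binds NADH and the flavin, rose by 0.14, a call that held in 2 of the 6 fits that left out a library. *NDUFS3* shares 721 exon bases with *PTPMT1* (same strand, mean 1.62 FPKM) and 234 with *CELF1* (opposite strand, mean 18.1 FPKM). The part of shared reads in its rise was not tested. The lowest values of the complex beside *NDUFB1* belonged to *NDUFA13*, an accessory subunit also known as GRIM-19 (-0.44, limma adjusted p = 0.0740), and to the core subunit *NDUFV2* (-0.22, limma adjusted p = 0.215), both near 1 FPKM and neither called. For *NDUFV2* the named pseudogene copies, led by *NDUFV2P1*, summed to 203% of its own FPKM, so that its level depends on how shared reads were counted.

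Complex II, succinate dehydrogenase, links the chain to the citric acid cycle, and 3 of its 4 genes rose (median log2 fold change 0.46). *SDHA*, the flavoprotein (chr5:218241-256700), was at 12.4, 11.8 and 11.8 FPKM in TPC-1 and at 19.9, 18.4 and 17.9 in *RRM2*-OE-TPC-1, a rise of 0.64 ± 0.0494 (SE, limma adjusted p = 1.13e-05). *SDHB*, the iron-sulfur subunit, was at 20.9, 21.8 and 21.7 FPKM against 31.6, 28.4 and 29.9, a rise of 0.48 ± 0.0459 (limma adjusted p = 3.76e-05). *SDHD*, a membrane anchor, was at 11.6, 14.2 and 13.5 FPKM against 17.7, 17.9 and 17.8, a rise of 0.45 ± 0.0701 (limma adjusted p = 6.34e-04). The other anchor did not follow these 3 genes. *SDHC* was at 8.75, 8.16 and 8.19 FPKM against 8.90, 8.64 and 8.62, the groups overlapped, and its log2 fold change of 0.06 had a 95% interval of -0.05 to 0.17 (limma adjusted p = 0.292). Named pseudogene copies summed to 49.2% of the FPKM of *SDHA* and to 14.9% of that of *SDHD*. *SDHAP1*, the copy with the most FPKM for *SDHA*, also rose, by 0.25 (limma adjusted p = 0.0173).

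Complex III, the cytochrome bc1 complex, had 9 nuclear members tested, of which 7 rose and 0 fell (median log2 fold change 0.32). The highest was *UQCR10*, a small accessory subunit, at 32.8, 31.5 and 28.6 FPKM in TPC-1 and 41.4, 52.9 and 49.7 in *RRM2*-OE-TPC-1. Replicate 1 of *RRM2*-OE-TPC-1 was the lowest of its group and still above every TPC-1 library, and the gene rose by 0.62 ± 0.0909 (SE, limma adjusted p = 4.14e-04). *UQCRFS1*, the Rieske iron-sulfur protein, was at 19.3, 18.1 and 18.5 FPKM against 29.4, 25.4 and 27.0, a rise of 0.54 ± 0.0565 (limma adjusted p = 5.93e-05), and *UQCR11*, a further small subunit, rose by 0.41. The core protein *UQCRC1* rose by 0.19, the lowest of the 7. *UQCRB*, which binds ubiquinone, was at 16.5 ± 1.09 and 17.5 ± 0.572 FPKM (SD, n = 3) and *UQCRHL* at 1.06 ± 0.110 and 1.23 ± 0.363 FPKM, and neither was called (limma adjusted p = 0.234 and 0.517). *CYC1*, which encodes cytochrome c1 of this complex but falls outside the symbol rule, rose by 0.24 (limma adjusted p = 9.57e-04).

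Complex IV, cytochrome c oxidase, had 14 nuclear members tested, of which 10 rose and 3 fell (median log2 fold change 0.30). Here *NDUFA4* and *NDUFA4L2* were placed with complex IV, since the protein of the first is now known as a subunit of this complex. The 3 highest were *COX6C* at 0.60, *COX7B* at 0.59 and *COX5A* at 0.56. *COX6C*, a small membrane subunit, was at 28.0, 25.6 and 26.5 FPKM in TPC-1 and at 40.8, 40.4 and 40.7 in *RRM2*-OE-TPC-1, and its SE was 0.0397 (limma adjusted p = 4.58e-06). *COX5A*, which sits on the matrix side, was at 30.8, 30.3 and 29.5 FPKM against 40.5, 45.8 and 47.6. The spread of *COX5A* in *RRM2*-OE-TPC-1 was wider, and its groups did not overlap (SE 0.0586, limma adjusted p = 6.17e-05). *COX7A2L*, a factor that joins complexes III and IV in supercomplexes, was at 14.4, 14.04 and 14.1 FPKM against 13.1, 12.5 and 12.3, and fell by 0.17 on the log2 scale (SE 0.0409, limma adjusted p = 0.00727).

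The isoform genes of complex IV gave the only large changes, and both were decreases of the minor partner of a pair. *COX6B2*, the isoform of subunit VIb known from testis (chr19:55349306-55354814), was at 0.817, 0.686 and 0.609 FPKM in TPC-1 and at 0.0181, 0.0153 and 0.0329 FPKM in *RRM2*-OE-TPC-1. These levels were 52, 44 and 37 reads against 1, 1 and 2, so that the *RRM2*-OE-TPC-1 level rests on 4 reads in all. Scaled for depth, the ratio of TPC-1 to *RRM2*-OE-TPC-1 was 32.0, with a 95% interval of 12.2 to 119 that covers counting error only. The log2 fold change, which the pseudocount pulls towards 0 at such levels, was -2.71 ± 0.237 (SE, limma adjusted p = 2.18e-05). *COX6B2* met the filter of 0.5 FPKM only through its TPC-1 libraries, so its p-value is no separate support for the fall. *COX6B1*, the isoform made in most tissues, was at 49.1, 48.5 and 51.0 FPKM against 68.8, 72.7 and 71.0 and rose by 0.52 ± 0.0357 (limma adjusted p = 6.06e-06). *COX6B2* thus made up 1.40% of the FPKM of the pair in TPC-1, and this share was 0.0312% in *RRM2*-OE-TPC-1.

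*NDUFA4L2*, a paralog of *NDUFA4* known as a target of hypoxia signaling (chr12:57234903-57240715), was at 2.80, 2.50 and 2.37 FPKM in TPC-1 and at 0.715, 0.770 and 0.626 in *RRM2*-OE-TPC-1. The groups lay far apart, with 355 reads against 94, and the log2 fold change was -1.73 ± 0.120 (SE, limma adjusted p = 6.21e-06). Its partner *NDUFA4* was at 22.8, 23.4 and 20.4 FPKM against 26.8, 33.6 and 31.3 and rose by 0.46 ± 0.0865 (limma adjusted p = 0.00181). The share of *NDUFA4L2* in the pair went from 10.3% ± 0.627 to 2.27% ± 0.319 (SD, n = 3). *NDUFA4L2* shares 33 exon bases with *SHMT2* (opposite strand, mean 53.1 FPKM). The part of shared reads in the values of *NDUFA4L2* was not tested.

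Minor isoforms of the other pairs were scarcely measured, and the ubiquitous forms carried the signal. *COX4I2*, *COX6A2* and *COX7B2*, known from lung, muscle and testis, were listed at 0 in all 6 libraries, with 0 reads. A level too low to be sampled at this depth would also be listed at 0. *COX7A1*, the muscle and heart form, had 17 reads in the TPC-1 and 16 in the *RRM2*-OE-TPC-1 libraries and was too low to test, and *COX8C* had 2 and 0. The ubiquitous *COX4I1* rose by 0.27, *COX7A2* by 0.54, *COX8A* by 0.24 and *COX6A1* by 0.19. The call of *COX6A1* held in 2 of the 6 fits that left out a library, and pseudogene copies, led by *COX6A1P2*, summed to 19.9% of its FPKM. *COX7C*, which has no minor partner here, was at 60.2 ± 2.68 and 58.3 ± 1.82 FPKM (SD, n = 3) and was not called (limma adjusted p = 0.375). The other untested members were *NDUFA7*, with 27 and 13 reads, and the readthrough or copy genes *NDUFC2-KCTD14*, *ATP5MF-PTCD1* and *ATP5MGL*, with at most 4 reads in a group.

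Complex V had 19 nuclear members tested, of which 13 rose and 2 fell (median log2 fold change 0.33). The c subunit of the membrane ring is encoded by 3 genes that give the same mature protein, and these did not move together. *ATP5MC1* (chr17:48892765-48895871) was at 24.2, 21.8 and 22.3 FPKM in TPC-1 and at 39.1, 41.4 and 39.2 in *RRM2*-OE-TPC-1, a rise of 0.81 ± 0.0472 (SE, limma adjusted p = 2.49e-06). *ATP5MC3* was at 18.0, 16.3 and 16.9 FPKM against 27.7, 26.6 and 27.4, a rise of 0.68 ± 0.0444 (limma adjusted p = 4.59e-06). *ATP5MC2* was at 35.3, 31.6 and 31.8 FPKM against 27.3, 27.8 and 30.5, and fell by 0.20 (SE 0.0587, limma adjusted p = 0.0146). Of the 3, *ATP5MC2* had the highest mean level in TPC-1 (32.9 FPKM) and *ATP5MC1* in *RRM2*-OE-TPC-1 (39.9 FPKM).

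Elsewhere in the ATP synthase, *ATP5MD*, a small subunit of the membrane part, was at 44.9, 44.9 and 45.6 FPKM in TPC-1 and at 66.0, 67.2 and 65.1 in *RRM2*-OE-TPC-1, a rise of 0.55 ± 0.0296 (SE, limma adjusted p = 1.65e-06). The catalytic beta subunit *ATP5F1B*, the nuclear member with the highest level, went from 214 ± 2.83 to 303 ± 3.74 FPKM (SD, n = 3), a rise of 0.50. Its partner *ATP5F1A*, the alpha subunit, was at 54.4 ± 0.652 and 57.5 ± 2.00 FPKM and was not called (log2 fold change 0.08, limma adjusted p = 0.0783). *ATP5F1A* and *ATP5F1B* were chosen for their roles in the enzyme after their values were seen. *ATP5S* fell by 0.54, from 2.16 ± 0.189 to 1.454 ± 0.131 FPKM (limma adjusted p = 0.00246), and *ATP5IF1* was at 22.3 ± 0.529 and 21.5 ± 0.364 FPKM (limma adjusted p = 0.237).

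**Figure D2:**
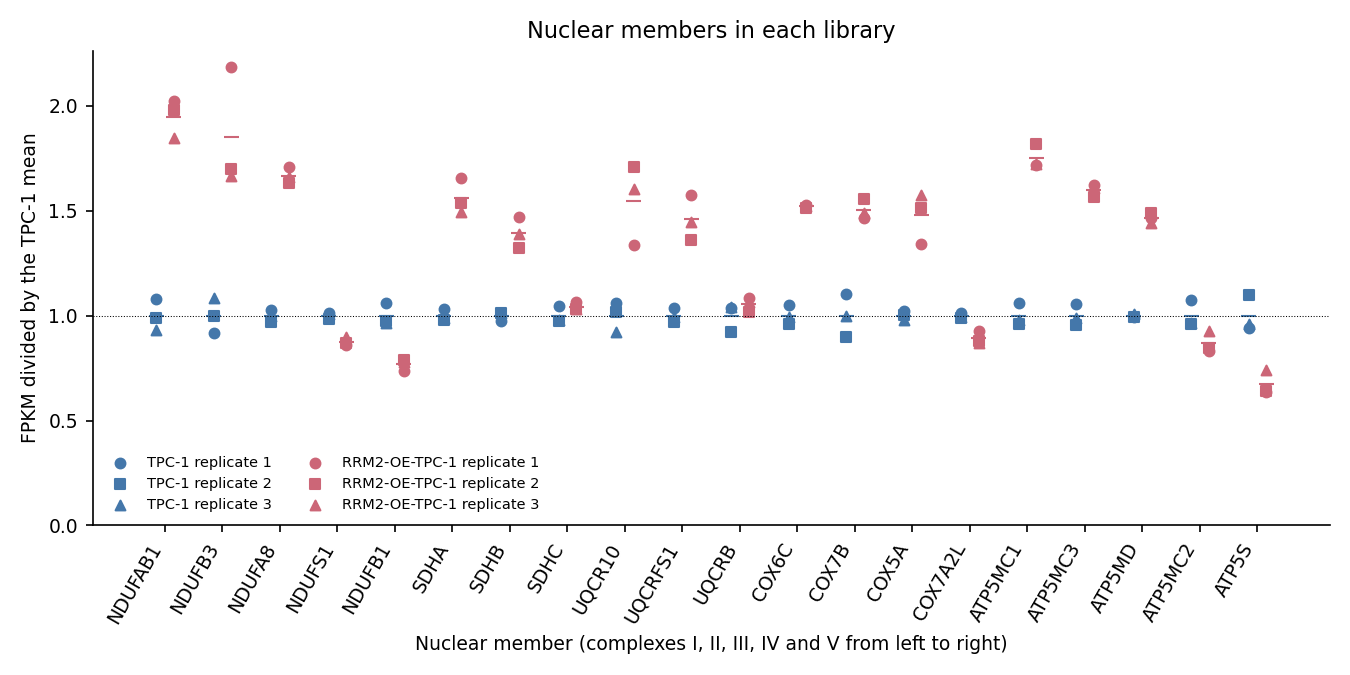
FPKM of 20 nuclear members in each library, divided by the mean of the 3 TPC-1 libraries, with complexes I to V from left to right; colours mark the groups, symbols the replicates and short lines the group means. The RRM2-OE-TPC-1 points lie above all TPC-1 points for the members that rose and below them for NDUFS1, NDUFB1, COX7A2L, ATP5MC2 and ATP5S, and overlap them for SDHC and UQCRB.

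Some nuclear members share sequence with other genes, which can move reads between them. The exons of 23 tested nuclear members overlapped another gene at 0.5 FPKM or more, 22 of them on the opposite strand. The kit marks strand, but whether counting used it is not stated in the sources used here. The 55 members with neither such an overlap nor pseudogene copies at 10% or more of their FPKM held 37 higher and 4 lower, with a median log2 fold change of 0.28.

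The 13 mRNAs of chromosome MT were far more abundant than the nuclear ones, at a median of 3106 FPKM in TPC-1 against 16.8, and changed less clearly. All 3 that passed the test were complex I subunits, *MT-ND3*, *MT-ND5* and *MT-ND6*, and 0 fell (limma). *MT-ND6*, the one mRNA of the light strand (chrMT:14149-14673), was at 1559, 1510 and 1296 FPKM in TPC-1 and at 1657, 2092 and 2310 in *RRM2*-OE-TPC-1, a rise of 0.46 ± 0.127 (SE, limma adjusted p = 0.0115). It was the one mitochondrial member whose groups did not overlap, and its call held in every fit that left out a library. *MT-ND6* lies directly next to *MT-ND5* (chrMT:12337-14148), which is on the opposite strand. Strand use in counting is not stated, so the values may include reads from heavy-strand RNA over the same bases. The part of such reads in the rise of *MT-ND6* was not tested. *MT-ND3* was at 1377, 1174 and 1125 FPKM against 1302, 1896 and 1845 (0.44 ± 0.147, limma adjusted p = 0.0271). *MT-ND5* was at 1308, 1285 and 1072 FPKM against 1255, 1790 and 1848 (0.40 ± 0.150, limma adjusted p = 0.0432). In both, replicate 1 of *RRM2*-OE-TPC-1 lay within the range of TPC-1, and the calls held in 2 and 1 of the 6 fits that left out a library.

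The other 10 mitochondrial members were not called, and their log2 fold changes were 0.35 for *MT-ND2*, 0.26 for *MT-ND4L*, 0.21 for *MT-ND4* and 0.19 for *MT-ND1*. For cytochrome b of complex III, *MT-CYB*, the value was 0.04, and for the catalytic subunits of complex IV it was -0.16 for *MT-CO1*, 0.22 for *MT-CO2* and -0.12 for *MT-CO3*. The complex V subunits *MT-ATP6* and *MT-ATP8* stood at 0.12 and -0.02. In these, the groups overlapped in every case, and the median over all 13 was 0.21. *MT-ATP8* shares 46 of its bases with the far more abundant *MT-ATP6*, and *MT-ND4L* shares 7 with *MT-ND4*. Copies in the nuclear genome can take reads too, and *MTND2P28* had 5.34% of the FPKM of *MT-ND2* and *MTATP6P1* 3.62% of that of *MT-ATP6*.

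**Figure D3:**
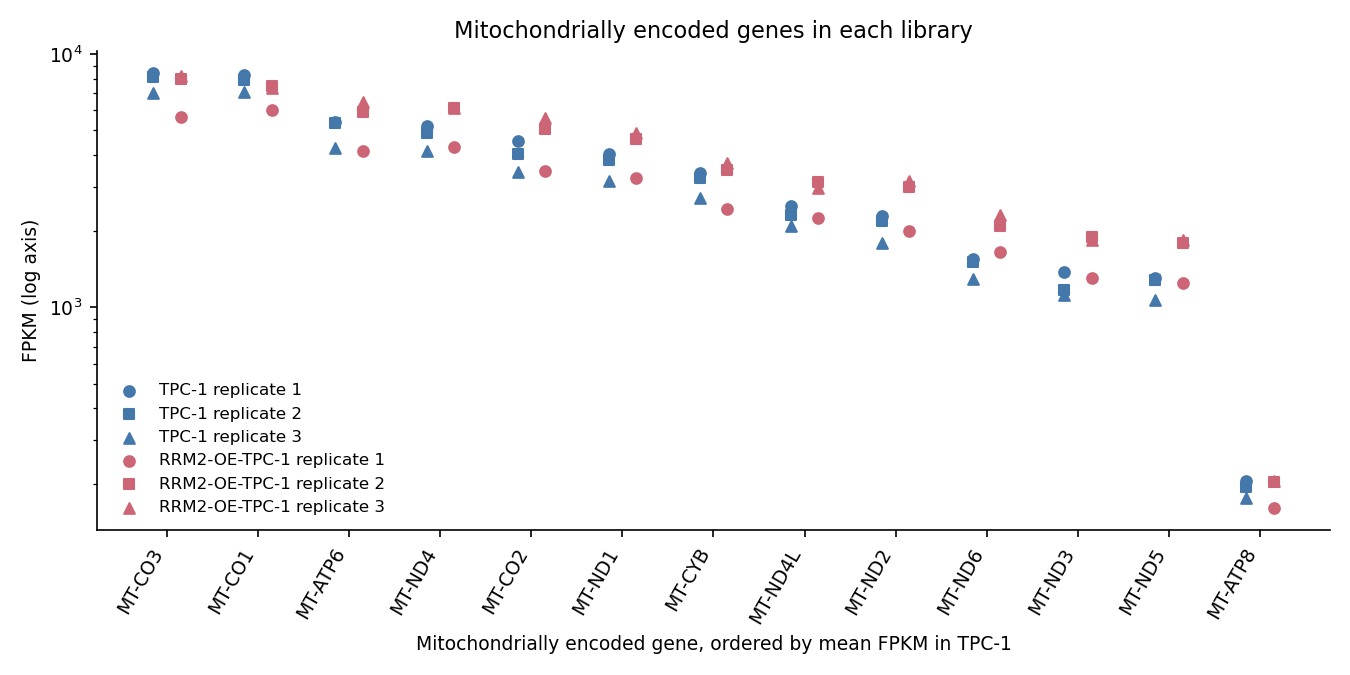
FPKM of the 13 protein-coding genes of chromosome MT in each library on a log axis, ordered by the TPC-1 mean. Replicate 1 of RRM2-OE-TPC-1 (circle) is the lowest of its group at every gene, at 37957 FPKM summed over the 13 genes against 52772 and 54804 in replicates 2 and 3.

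The level of mitochondrial mRNA set 1 library apart. Chromosome MT took 5.69%, 5.50% and 4.79% of the reads in TPC-1 and 4.29%, 5.74% and 5.89% in *RRM2*-OE-TPC-1, and replicate 1 of *RRM2*-OE-TPC-1, the lowest, was also the shallowest library. Without that library 9 of the 13 genes were called higher and 0 lower, with a median log2 fold change of 0.38 (by limma; 33.1% of all tested genes were then called higher and 31.3% lower). The 9 were all 7 complex I genes, *MT-CO2* and *MT-ATP6*. The nuclear members were steadier, since without the same library their median was 0.29 and 54 were higher and 8 lower. Summed mitochondrial FPKM was 22.4, 22.8 and 18.9 times summed nuclear FPKM in TPC-1 and 14.3, 19.8 and 20.8 times in *RRM2*-OE-TPC-1. The ratios overlapped between groups, and whether nuclear and mitochondrial members changed by different amounts was not tested.

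A ratio within each library removes differences in the total mitochondrial level, so the reads of each gene were taken as a share of all reads on the 13 genes. On this scale the complex I genes and the complex IV genes *MT-CO1* and *MT-CO3* separated in opposite directions. *MT-ND6* took 1.71%, 1.74% and 1.74% in TPC-1 and 2.34%, 2.14% and 2.29% in *RRM2*-OE-TPC-1, a ratio of means of 1.31. *MT-CO1* took 26.7%, 26.8% and 28.1% against 25.03%, 22.5% and 21.5%, a ratio of 0.847, and *MT-CO3* took 13.8%, 13.9% and 14.04% against 11.9%, 12.2% and 12.2%, a ratio of 0.869. For all 7 complex I genes every *RRM2*-OE-TPC-1 share lay above every TPC-1 share, with ratios of 1.08 for *MT-ND1* and 1.09 for *MT-ND4* up to 1.25 for *MT-ND5*, 1.29 for *MT-ND3* and 1.31 for *MT-ND6*. Such separation was common in this contrast, since by FPKM 37.3% of all tested genes lay wholly above and 35.0% wholly below. No background was computed for shares.

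The shares of *MT-CYB*, *MT-CO2*, *MT-ATP6* and *MT-ATP8* overlapped between the groups. For each of the 9 separated genes the two-sided exact permutation test gave p = 0.1, the smallest that 3 against 3 allows, or 0.144 after Benjamini-Hochberg adjustment over the 13 genes, so none can pass 0.05. The shares sum to 100% within a library and so depend on each other. The shares describe the composition of these libraries, and they do not show which of the genes changed.

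**Figure D4:**
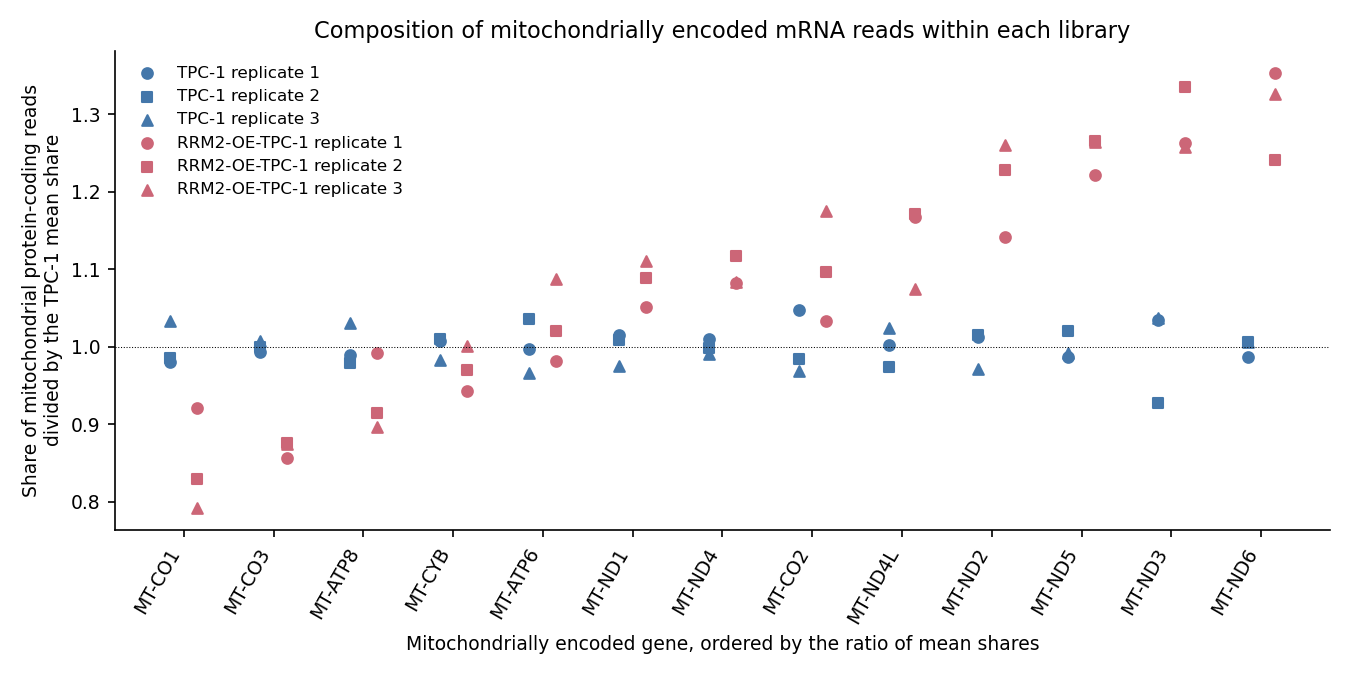
Share of each gene in the reads of the 13 mitochondrial protein-coding genes, divided by the TPC-1 mean share, in each library and ordered by the ratio of means. All 7 complex I genes (MT-ND) have RRM2-OE-TPC-1 points above every TPC-1 point, and MT-CO1 and MT-CO3 have them below.

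The promoters of the nuclear members were searched for 3 short motifs that are known from genes of the chain, in the 250 bases before and 50 after the RefSeq start on GRCh38.p14 and on both strands. A RefSeq promoter was matched for 69 of the 91. The site of NRF1, nuclear respiratory factor 1, was taken as GCGCA, any base, and GCGC in a row, the ETS site bound by GABPA as CCGGAAG, and the YY1 site as AAGATGGC. The NRF1-type letters stood in 16 of the 69 promoters (23.2%), against 5.78% of all 35116 promoters and 12.4% of the 9191 matched to tested protein-coding genes. The ETS letters stood in 27.5%, against 10.3% and 20.2%, and the YY1 letters in 15.9%, against 2.89% and 5.69%. Among matched members that rose, 12 of 42 held the NRF1-type letters, and among those tested that did not rise, 3 of 22 did. For the ETS letters these counts were 14 of 42 and 5 of 22, and for the YY1 letters 7 of 42 and 3 of 22. Whether these shares differ was not tested. A match is a description of the sequence and no evidence of binding.

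The windows below hold the NRF1-type letters, in capitals, in members of complexes I, II and III that rose. They are examples, and further such windows, as in *UQCR11* and *ATP5ME*, are not printed. The printed windows are at chr5:218144-218173 (+), chr11:112086753-112086782 (+), chr19:29213163-29213192 (-), chr12:4649024-4649053 (+) and chr12:95003794-95003823 (-), and each reads 5′ to 3′ on the strand of the gene.
SDHA: ggtccgctttGCGCAGGCGCggcgccccca
SDHD: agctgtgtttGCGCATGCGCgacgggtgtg
UQCRFS1: gcgcctcctcGCGCCTGCGCcgtggttgga
NDUFA9: ttcttggttaGCGCTTGCGCagacaggcga
NDUFA12: acctagctctGCGCACGCGCagagccacca
The motif starts 166, 110, 31, 80 and 116 bases before the start site of these genes. *SDHA*, *SDHD* and *UQCRFS1* rose by the values given above, and *NDUFA9* and *NDUFA12*, both accessory subunits of complex I, rose by 0.52 and 0.37. In *UQCRFS1* and *NDUFA9* the letters match on the opposite strand, and in *SDHD* they match on both.

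The regulators known for such promoters did not rise as a group. Of 12 tested regulators, 2 rose and 6 fell, with a median log2 fold change of -0.11. *NRF1* itself was at 4.61 ± 0.204 and 4.40 ± 0.505 FPKM (SD, n = 3) and was not called (limma adjusted p = 0.497), nor was *ESRRA*, the estrogen-related receptor alpha (15.6 ± 1.45 and 16.7 ± 0.492 FPKM, limma adjusted p = 0.219). *PPARGC1B*, a coactivator of these factors, rose by 1.08, from 0.726 ± 0.0799 to 1.64 ± 0.187 FPKM (limma adjusted p = 1.77e-04). *ESRRG*, the gamma receptor, went from 0.858 ± 0.0651 to 0.107 ± 0.0215 FPKM, a log2 fold change of -2.22 (limma adjusted p = 2.38e-05). *ESRRG* met the filter of 0.5 FPKM only through its TPC-1 libraries, so its p-value is no separate support for the fall. Its *RRM2*-OE-TPC-1 level was close to the pseudocount of 0.1, which pulls the fold change towards 0. The coactivator *PPARGC1A* was at 0.0205 and 0.00385 FPKM and was not tested.

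Factors that build the complexes were mixed. For complex I, 9 of 18 assembly factors rose and 2 fell, led by *NDUFAF8*, which rose by 1.39 from 10.2 ± 0.626 to 26.8 ± 3.87 FPKM (SD, n = 3, limma adjusted p = 6.00e-06), while *ECSIT* fell by 0.28. For complex IV, 12 of 23 rose and 4 fell. *COX17*, a copper chaperone, rose by 1.09, from 3.04 ± 0.172 to 6.57 ± 0.240 FPKM (limma adjusted p = 2.98e-06), and *COA5* fell by 0.58. For complex III, 3 of 6 rose and 1 fell, with *BCS1L*, the translocator of the Rieske protein, higher by 0.86 and *TTC19* lower at -0.32. For complexes II and V, 1 of 4 rose and 1 of 4 fell in each, with *SDHAF2* at 0.45 and *SDHAF4* at -0.26, and *TMEM70* at 0.79 and *ATPAF2* at -0.29.

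Electron carriers and the enzymes of ubiquinone synthesis held 7 higher and 3 lower of 15 (median log2 fold change 0.07). Cytochrome c, *CYCS*, rose by 0.82, from 25.7 ± 0.709 to 45.5 ± 0.813 FPKM (SD, n = 3, limma adjusted p = 4.98e-07), and *PDSS1*, which builds the tail of ubiquinone, rose by 1.00. *COQ5*, a methyltransferase of the same pathway, fell by 0.60. In the citric acid cycle, which feeds complexes I and II, 14 of 18 rose and 2 fell (median 0.25), with *DLAT* of the pyruvate dehydrogenase complex at 0.63 and *IDH2* at -0.66, from 81.4 ± 2.33 to 51.4 ± 2.52 FPKM (limma adjusted p = 4.57e-06).

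Genes that express the mitochondrial genome were more often higher than lower. Of 16 factors for its transcription and replication, 9 rose and 2 fell (median log2 fold change 0.30). *TFAM*, which packs mitochondrial DNA and activates its transcription, rose by 0.58, from 13.1 ± 1.05 to 19.5 ± 0.382 FPKM (SD, n = 3, limma adjusted p = 5.06e-05). The polymerase *POLRMT* was at 14.9 ± 0.969 and 16.5 ± 1.55 FPKM and was not called (limma adjusted p = 0.127), *MTERF1* rose by 0.71 and *TOP1MT* fell by 0.54. Of 23 factors in a list for RNA processing and stability, 14 rose and 2 fell (median 0.29). This list also held *MTIF2* and *MTIF3*, which are factors for the start of translation. *ELAC2*, which cuts tRNAs from the long transcripts, rose by 0.85, *LRPPRC*, which stabilizes mitochondrial mRNAs, rose by 0.29, and *MTIF3* fell by 0.35.

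Among mitochondrial ribosomal proteins, 60 of 77 rose and 2 fell (median log2 fold change 0.36), and among proteins of the import machinery 13 of 18 rose and 2 fell (median 0.55), with *TOMM40*, the import pore, at 1.05 and *TIMM9* at -0.48. The cytosolic ribosomal proteins, a like-sized set of small abundant proteins, held 21 higher and 12 lower of 81 (median 0.01). The counts of all these lists stand beside 34.9% higher and 32.7% lower among all tested genes, and no list was tested against the others.

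**Figure D5:**
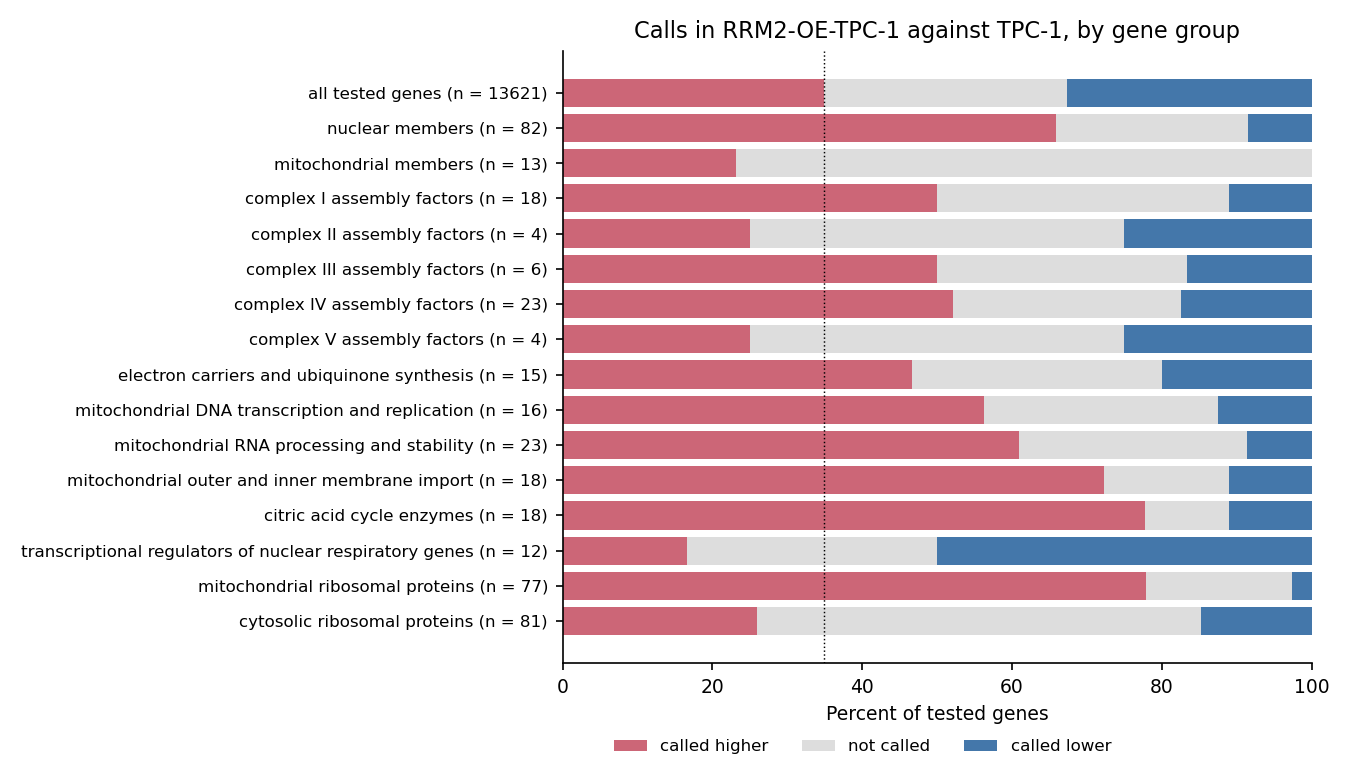
Percent of tested genes called higher (left), not called (middle) and called lower (right) at an adjusted p of 0.05 or less, for all tested genes, the nuclear and mitochondrial members and the gene lists, with the number of tested genes in brackets. The dotted line marks the 34.9% of all tested genes called higher; the nuclear members stand at 65.9% and the mitochondrial members at 23.1%.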

How the data were processed

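RNA of 3 TPC-1 and 3 *RRM2*-OE-TPC-1 libraries was sequenced. Reads were cleaned by the authors with fastp, mapped with HISAT2 2.0.5 and counted with featureCounts 1.5.0, and the deposited values are FPKM, that is counts over gene length and depth. Per the labels the genome build was GRCh38.p14 and their own tests used DESeq2 1.20.0. All 58735 gene positions and lengths were those of GENCODE 29. Strand use in counting is not given in the sources used here.

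Multiplied by gene length, 100% of the values were whole multiples of 1 step (within 0.05 reads), so reads per gene were recovered (14317091 to 17084067 reads on genes per library). Intervals from reads cover counting error only. Genes with at least 0.5 FPKM and 10 reads in at least 3 libraries were tested on log2(FPKM + 0.1) with limma 3.58.1 (R 4.3.3; lmFit, eBayes with trend) over all 13621 genes, with Benjamini-Hochberg adjustment. FPKM are not counts, hence limma in place of a count model. The procedure was run on simulated reads with the same dispersion for every gene. That simulation does not cover the wide spread of the mitochondrial members between libraries. P-values measure the spread between these libraries. Motifs and figures used Python 3.11.15, matplotlib 3.10.9, scipy 1.17.1, pandas 2.3.3 and numpy 2.4.6. Promoters are from RefSeq.

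Members and gene lists were chosen with earlier results of these data known. Named genes were the 13 mitochondrial genes, the 4 *SDH* genes, the 3 highest and 3 lowest nuclear members of complexes I, III, IV and V, the isoform genes, the highest and lowest gene of each list (not of the ribosomal proteins) and the regulators, carriers and factors given by name. Other named genes, such as *ATP5F1B*, *NDUFS3* and the pseudogenes, were chosen after their values were seen. Alternatives were no filter, pseudocounts of 1 and 0.01, library totals, TMM factors without chromosome MT, each library left out, a block for the replicate number, voom on recovered reads and a fold threshold. Some marker values are not reported here. Restriction to members without overlap or pseudogene copies was added after seeing the data.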

Additional observations from a re-analysis of the deposited data

How the results depend on the processing

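The nuclear result kept its direction throughout: 56 to 61 of the 61 calls held under each alternative other than the fold threshold, with 0 sign changes, and leaving out 1 library gave 50 to 56 higher, 7 to 8 lower and a median log2 fold change of 0.27 to 0.32. A log2 fold change of 1 or more left 0 higher and 2 lower, library totals gave a median of 0.22, and members without overlap or pseudogene copies, fewer genes, held 4 lower. The mitochondrial count was unstable: from 3 higher it became 0 without a filter, 8 with voom on recovered reads, 0 at a log2 fold change of 1 or more, and 1 to 9 with 1 library left out (9 without *RRM2*-OE-TPC-1 replicate 1, 1 when replicate 2 or 3 of either group was left out, and 2 for TPC-1 replicate 1). Voom called 1 lower, *MT-CO1*. The cause was not tested. The replicate number as a block gave 54 higher and 7 lower nuclear members and 1 higher mitochondrial member; the numbers did not pair the libraries (same-number correlations of deviations -0.08, -0.01 and -0.10). Values near 0 that changed sign were *MT-CYB* at -0.022 with library totals, and, with 1 library left out, *MT-CYB* at -0.079 to 0.22, *MT-ATP6* at -0.012 to 0.32, *MT-ATP8* at -0.084 to 0.097, *MT-CO3* at -0.22 to 0.048 and *UQCRHL* at -0.00079 to 0.41. Over 78 named genes and 1014 comparisons, 955 kept direction and side of the threshold, 34 lost the call, 16 gained it and 9 changed sign, 0 of the last in a called gene. With 3 libraries per group small changes are missed, and reads limit *COX6B2* in *RRM2*-OE-TPC-1.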

Other observations

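The ribosomal RNAs of chromosome MT lie outside the protein-coding rule and were chosen after their values were seen. *MT-RNR1*, the RNA of the small mitochondrial ribosomal subunit, was at 1140, 1076 and 986 FPKM in TPC-1 and at 617, 700 and 750 FPKM in *RRM2*-OE-TPC-1, a log2 fold change of -0.63 ± 0.0831 (SE, limma adjusted p = 2.30e-04), with -0.70 to -0.56 when 1 library was left out. *MT-RNR2*, the RNA of the large subunit, was at 3792, 3589 and 3346 FPKM against 2860, 3221 and 3332, a log2 fold change of -0.19 ± 0.0856 (limma adjusted p = 0.0813). The groups did not overlap for either gene. Both libraries with the highest mitochondrial mRNA, replicates 2 and 3 of *RRM2*-OE-TPC-1, thus had less *MT-RNR1* than any TPC-1 library. The sources differ on how ribosomal RNA was kept out of the libraries, by poly(A) selection or by depletion, and the part of either step in these levels was not tested.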
